A study of Mus musculus with 4 samples.

Results

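Open chromatin was described at 7 genes of the machinery that ends red cell formation: the ubiquitin enzymes Trim58, Ube2o and Ube2h, the nuclear export receptor Xpo7, the small GTPases Rac1 and Rac2, and the histone deacetylase Hdac2. These 7 of 21774 protein-coding genes were chosen by name for their known roles, and a peak belonged to a gene when its summit lay in the gene body, or within 100 kb with that gene's end as the nearest gene end. Accessible DNA was read with the Omni-ATAC protocol, which tags DNA that a transposase can reach, in mouse fetal liver cells of embryonic day 14.5, when this organ is the main site of red cell formation. There were 2 libraries from Hemgn KO livers (labelled hemogen KO, lacking the blood nuclear protein hemogen) and 2 from WT livers. The labels give neither the KO allele nor whether replicates were separate embryos or litters, so differences between libraries of a genotype may be technical. Fetal liver is a mixture of cells, and fewer cells of a type cannot be told apart from less open DNA per cell.

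During terminal maturation a red cell precursor condenses its chromatin, extrudes its nucleus and removes most of its organelles and ribosomes. Trim58 is a ubiquitin ligase of late erythroblasts that acts on the motor dynein, Ube2o is a ubiquitin-conjugating enzyme with ligase activity that clears ribosomes from reticulocytes, and Ube2h is the conjugating enzyme of the CTLH ligase. In mouse erythroblasts Xpo7 exports nuclear proteins during condensation, Rac GTPases act on the actin ring of enucleation, and Hdac2 is needed for condensation.

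Across the 7 genes, 54 merged regions held a peak in at least 1 library, of 55290 regions in all. The genes had 31 and 34 peaks in Hemgn KO replicates 1 and 2, and 52 and 33 in WT replicates 1 and 2. Of the 54 regions, 25 had a peak in all 4 libraries (46.3%), against 49.7% of all regions. KO-only regions, with a peak in both KO libraries and in no WT library, numbered 0, against 1.41% of all regions. WT-only regions numbered 2, or 3.70%, against 2.2% of all regions, at Rac1 and Xpo7. A further 17 regions were found in 1 library (31.5%, against 25% of all regions), and 14 of these were in WT replicate 1 alone (25.9%, against 12.9%). WT replicate 1 was the deepest library, as given below, and a peak in a single library was not read as a difference of genotype.

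**Figure D1:**
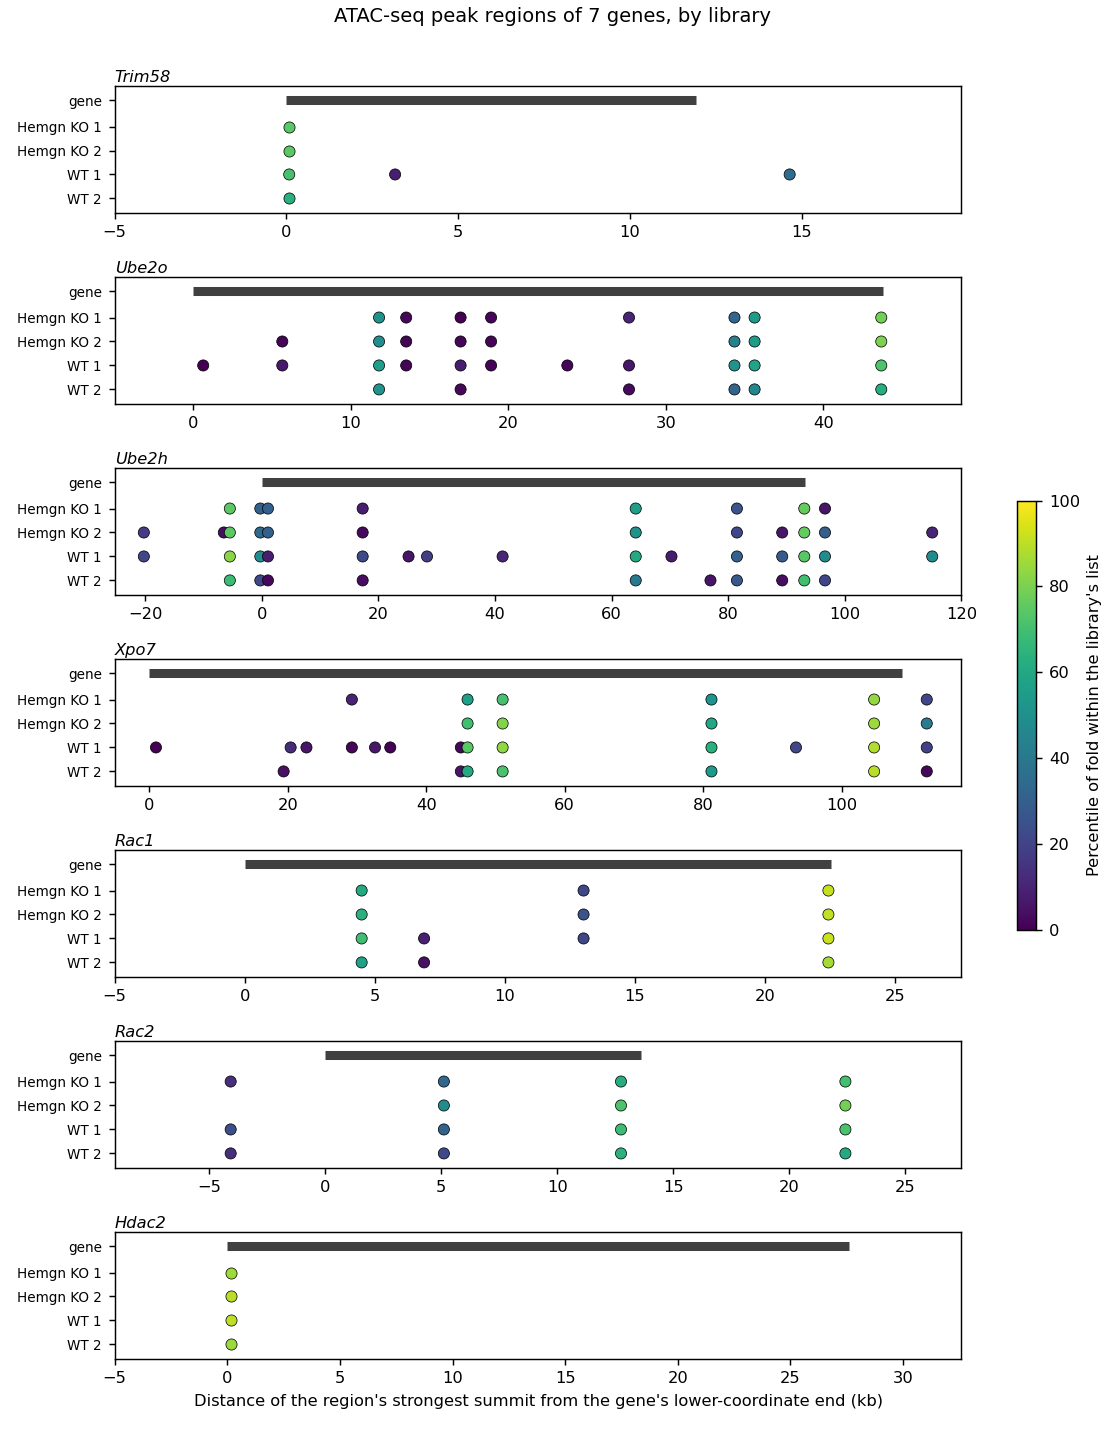
Peak regions of the 7 genes by library. The x axis gives the distance in kb of each region's strongest summit from the gene's lower-coordinate end, the bar marks the gene body, each row is a library, and colour is the percentile of fold within that library's list. Each gene has at least 1 region in all 4 rows, and 14 regions appear in the WT 1 row alone, none above the 35.5 percentile.

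The depth of the lists sets what can be read from them. Lists held 35426 and 43018 peaks in Hemgn KO replicates 1 and 2, and 47858 and 34181 in WT replicates 1 and 2. The number of fragments or reads stacked at each summit, here called the summit pileup, was recovered from the deposited fold and −log10 p for 100% of peaks in all 4 lists. The median summit pileup over the 27473 regions shared by all libraries was 54 and 84 in KO and 135 and 51 in WT. Pileups were divided by this median before libraries were compared. The 7 genes were also compared by percentile of fold among the shared regions, where every library has the same number of ranks. Log2 summit pileups over the shared regions correlated most between the WT libraries (Pearson r = 0.986). KO replicate 2 correlated at 0.983 with WT replicate 1 and at 0.981 with KO replicate 1, so libraries did not group cleanly by genotype. At Hemgn itself the same rule gave 6 and 6 peaks in KO and 6 and 5 in WT, which checks nothing about the labels, since the allele is not given.

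Gene-end signal at markers of several cell types did not overlap between genotypes. Scaled summit pileup summed over the gene-end peaks of 8 erythroid genes was 16.1 and 21.8 in KO and 26.0 and 25.2 in WT. A gene-end peak was found at 6 and 7 of these 8 genes in KO and at 7 and 7 in WT, with none at Gata1. Over 6 endothelial and stellate genes the sum was 2.19 and 1.67 in KO and 1.09 and 1.49 in WT, and over 5 megakaryocyte genes it was 2.94 and 3.39 in KO and 4.24 and 4.16 in WT. White cell lists were low: 6 lymphocyte genes summed to 0.556 and 0.429 in KO and 0 and 0 in WT, with no peak at Cd79a, Cd3e or Cd2. Sums over 6 genes each were 0.296 and 0.821 in KO and 0.681 and 0.314 in WT for macrophage genes (none at C1qa or Cd68), and 0.259 and 0.560 in KO and 0.563 and 0.490 in WT for granulocyte genes (none at S100a9 or Elane). For hepatocyte genes the sums were 1.06 and 1.0 in KO and 1.2 and 1.14 in WT, with none at Afp, Ttr or Serpina1a. The part of these differences in the results was not tested.

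Promoter sequences were at hand for 3 of the genes, and are shown because a strong shared peak covered each start in every library, next to an internal Ube2h start that no peak covered. They are RefSeq windows of build GRCm38.p6, from 250 bases before to 50 bases after the start, 5′ to 3′ on the gene's strand, and summits are placed on them with the lists read as this build. Capitals mark matches on either strand to the GATA-factor motif AGATAA, to the KLF-factor motif CCNCNCCC, or to the motif TGAGTCA of NF-E2 and AP-1.
Trim58, + strand, chr11:58640215-58640514: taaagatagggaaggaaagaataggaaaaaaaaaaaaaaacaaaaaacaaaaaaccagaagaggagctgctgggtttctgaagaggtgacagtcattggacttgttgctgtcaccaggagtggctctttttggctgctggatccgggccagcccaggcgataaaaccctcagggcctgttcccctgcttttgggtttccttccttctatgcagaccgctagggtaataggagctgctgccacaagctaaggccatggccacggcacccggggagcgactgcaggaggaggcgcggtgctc
Ube2h outer start, − strand, chr6:30304490-30304789: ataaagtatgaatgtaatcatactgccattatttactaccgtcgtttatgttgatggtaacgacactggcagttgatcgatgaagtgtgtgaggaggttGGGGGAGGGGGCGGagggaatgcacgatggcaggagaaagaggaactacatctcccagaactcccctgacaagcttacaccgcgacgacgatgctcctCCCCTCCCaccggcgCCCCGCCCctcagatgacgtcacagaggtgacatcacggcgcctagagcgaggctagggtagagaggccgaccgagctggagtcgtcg
Ube2h internal start, − strand, chr6:30243754-30244053: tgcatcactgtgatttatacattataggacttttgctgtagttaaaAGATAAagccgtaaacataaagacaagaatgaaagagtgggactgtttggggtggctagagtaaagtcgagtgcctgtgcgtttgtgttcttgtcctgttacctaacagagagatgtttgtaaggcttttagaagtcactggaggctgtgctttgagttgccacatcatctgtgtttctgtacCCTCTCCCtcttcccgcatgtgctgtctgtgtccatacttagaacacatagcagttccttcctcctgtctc
Hdac2, + strand, chr10:36974294-36974593: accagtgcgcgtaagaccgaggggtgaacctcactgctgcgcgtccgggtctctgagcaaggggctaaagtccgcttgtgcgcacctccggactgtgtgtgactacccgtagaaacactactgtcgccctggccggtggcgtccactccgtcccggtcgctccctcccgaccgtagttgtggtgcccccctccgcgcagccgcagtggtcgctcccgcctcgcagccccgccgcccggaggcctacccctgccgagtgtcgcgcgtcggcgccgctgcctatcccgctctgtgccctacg
The summit nearest to the Trim58 start lay 82 bp after it in both KO libraries, and 82 and 89 bp after it in WT. At the outer Ube2h start the summits lay 196 and 112 bp after it in KO and 99 and 20 bp after it in WT, and at the Hdac2 start 10 bp before it in both KO libraries and 87 and 10 bp before it in WT. The internal Ube2h start had its nearest summit 15185 and 15230 bp away in KO, and 4182 and 15041 bp away in WT. The outer Ube2h window held 5 KLF matches, some sharing bases, and the internal one held 1 GATA and 1 KLF match. Trim58 and Hdac2 held no match to these 3 motifs. Among 32851 RefSeq promoter windows of the same length, 11.2% held a GATA match, 49.5% a KLF match and 5.20% an NF-E2 and AP-1 match. The E-box CANNTG, not shown in capitals, was matched in both Ube2h windows and in 72.3% of all windows. No motif overlapped another kind. No match says only that these letters are not in the window.

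Every gene had at least 1 region in all 4 libraries. Taking for each gene the shared region with the highest mean percentile of fold within the deposited lists, the order was Rac1 (90.03 ± 2.36), Hdac2 (87.6 ± 2.41), Xpo7 (86.7 ± 2.48), Ube2h (75.2 ± 5.96), Ube2o (73.3 ± 8.02), Trim58 (70.8 ± 5.12) and Rac2 (70.1 ± 7.53; SD over 4 libraries of both genotypes). The first 3 genes overlapped in range among themselves, and so did the last 4. The lowest Xpo7 value (83.8) stood above the highest Ube2h value (82.7). That Xpo7 region also lies inside the gene Dok2, and the next Xpo7 region, at 70.4 to 83.5 (mean 76.6), overlapped Ube2h. Of the 25 shared regions, 7 lay within 1 kb of an end of their gene, 14 elsewhere in the gene and 4 outside it. Median percentile was 73.3 in those at gene ends and 51.8 in the others. Regions found in 1 library were low in fold, with a median percentile of 5.41 and a highest one of 35.5. Not all had low summits. In WT replicate 1, scaled pileup was 1.59 at the region inside Trim58 and 1.74 at the one 0.621 kb inside the lower end of Ube2o. Local backgrounds there were 13.6 and 25.3 times the library background.

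Between genotypes, the percentile of the strongest region among shared regions did not overlap at 5 of the 7 genes, higher in both KO libraries at Ube2o, Rac2, Trim58 and Rac1, and lower in both at Xpo7. An exact two-sided permutation test of 2 against 2 libraries has 6 relabelings and cannot give a p under 0.333, so no gene or region could pass. Over all 25 shared regions, 8 were higher in KO without overlap (32%, against 19.2% of all shared regions), 4 were lower (16%, against 20.4%) and 13 overlapped.

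**Figure D2:**
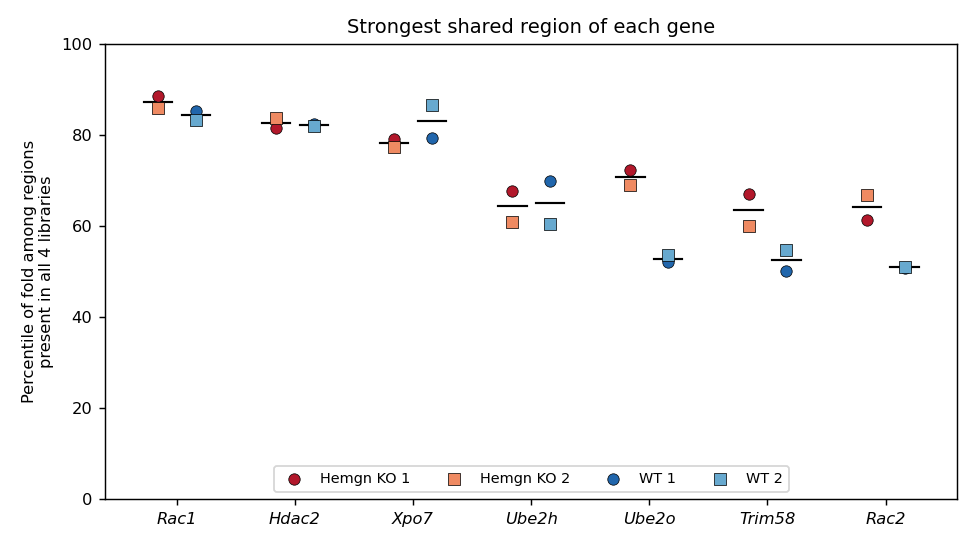
Percentile of fold, among regions present in all 4 libraries, at the strongest shared region of each gene. Points are libraries, KO left of WT, and bars are means of 2. KO points lie above WT points at Ube2o, Trim58, Rac2 and Rac1, below them at Xpo7, and the groups overlap at Ube2h and Hdac2.

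Trim58 had a single shared region, across its start (chromosome 11, 58640114 to 58642278). Its scaled summit pileup was 5.63 and 4.79 in KO and 5.31 and 5.55 in WT. The groups overlapped, with a KO to WT ratio of 0.956 (exact permutation p = 1). The percentile among shared regions went the other way, at 66.97 and 60.1 in KO and 50.2 and 54.8 in WT (exact permutation p = 0.333). Fold is set against the local background, which was 11.6 and 11.5 times the library background in KO and 14.35 and 14.7 times in WT. Beyond the start, WT replicate 1 alone had a peak inside Trim58 and another 2.71 kb past its higher end.

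Ube2o had the widest gap between genotypes at a gene end. The region at its higher-coordinate end (chromosome 11, 116580033 to 116581927) had summit pileups of 564 and 703 in KO and 712 and 223 in WT, or 10.4 and 8.37 in KO and 5.27 and 4.37 in WT after scaling. Both KO libraries stood above both WT libraries, with a ratio of 1.95 (log2 0.96; SD 0.23 in KO and 0.19 in WT, n = 2 each; exact permutation p = 0.333). Its percentile among shared regions was 72.4 and 69.0 in KO and 52.1 and 53.5 in WT, a mean of 70.7 ± 2.42 in KO and 52.8 ± 1.01 in WT (SD, n = 2 each). The gap in log2 scaled pileup was 0.80 to 1.12 with any 1 library left out. The 4 shared regions inside Ube2o did not follow the gene end. Their ratios were 0.792 to 0.922, and 3 of the 4 were lower in both KO libraries without overlap, against 17.3% of all shared regions. The local background at the gene end was 19.5 and 17.3 times the library background in KO and 13.8 and 11.8 times in WT, so it was higher in KO as well. The region 11.8 kb from the lower end (chromosome 11, 116549209 to 116550290) had scaled pileups of 1.98 and 1.69 in KO and 2.05 and 2.25 in WT. The region 9.41 kb from the higher end (116571645 to 116572536) had 2.33 and 2.49 in KO and 3.08 and 2.71 in WT. Of the 6 other Ube2o regions, 3 were in 3 libraries, 1 was in KO replicate 2 and WT replicate 1, and 2 were in WT replicate 1 alone.

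Ube2h had the most regions, 17, of which 8 were shared. At its outer start (chromosome 6, 30303725 to 30304673) scaled pileup was 8.81 and 6.67 in KO and 7.16 and 7.75 in WT, so the groups overlapped (ratio 1.03, exact permutation p = 1). A region 5.49 kb beyond the other end (30205428 to 30206168) was as high in fold as the start, at the 75.0 and 74.9 percentiles of the lists in KO and the 82.7 and 68.1 percentiles in WT. Its scaled pileup was 1.24 and 1.01 in KO and 1.40 and 1.33 in WT. Both KO libraries were lower here and at 5 further shared regions, against 17.3% of all shared regions, with ratios of 0.703 to 0.820. These lay at the lower end of the gene, at 17.3 and 64.1 kb inside that end, at 11.8 kb inside the higher end, and 3.36 kb beyond the higher end, next to the start. The last of these (30307409 to 30308411) had 2.22 and 2.54 in KO and 3.38 and 3.04 in WT. In percentile among shared regions it was the only one of them lower in both KO libraries, at 3.05 and 10.3 against 19.6 and 11.6 in WT. The others overlapped in percentile, and their local background was also lower in both KO libraries. At 64.1 kb that background was 1.73 and 2.19 times the library background in KO and 2.60 and 2.86 times in WT. By scaled pileup, 1 region was higher in both KO libraries. At 1.05 kb inside the lower end (30212119 to 30212783), scaled pileup was 0.444 and 0.405 in KO and 0.296 and 0.353 in WT, a ratio of 1.31. Its summits held 24 and 34 fragments or reads in KO and 40 and 18 in WT, so counting error is large. The erythroid, megakaryocyte and hepatocyte marker sums given above were likewise lower in both KO libraries. The endothelial and stellate sum and the lymphocyte sum were higher in both, and the macrophage and granulocyte sums overlapped. The part of these markers in the Ube2h result was not tested.

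Xpo7 held the 2 shared regions with the lowest KO to WT ratios among the 25. Inside the gene, 46.0 kb from its lower end (chromosome 14, 70707863 to 70708253), summit pileup was 43 and 118 in KO and 297 and 98 in WT, or 0.796 and 1.40 in KO and 2.2 and 1.92 in WT after scaling. At 51.0 kb (70712717 to 70713558), scaled pileup was 1.11 and 2.08 in KO and 2.99 and 2.27 in WT. Both KO libraries were below both WT libraries at each region, with KO to WT ratios of 0.514 and 0.584 (log2 -0.96 and -0.78; exact permutation p = 0.333 for each). KO replicate 1 was the lowest library at both. Without it the log2 differences were -0.55 and -0.32, both under the 1.5-fold size used below. Without WT replicate 1 the second was -0.58, also just under it, and without KO replicate 2 they were -1.37 and -1.23. The local background around the first region was 2.26 and 3.63 times the library background in KO and 5.34 and 5.19 times in WT. Percentiles of fold, which are set against that local background, overlapped between genotypes at both regions, at 44.2 and 52.8 in KO and 55.3 and 51.4 in WT for the first. The erythroid marker sum, 16.1 and 21.8 in KO and 26.0 and 25.2 in WT, was also lowest in KO replicate 1. So was the megakaryocyte sum, 2.94 and 3.39 in KO and 4.24 and 4.16 in WT. The macrophage and granulocyte sums were lowest there too, but overlapped between genotypes. The hepatocyte sum was lower in both KO libraries, and lowest in KO replicate 2. Other lists went the opposite way. The endothelial and stellate sum, 2.19 and 1.67 in KO and 1.09 and 1.49 in WT, was highest in KO replicate 1. So was the lymphocyte sum, 0.556 and 0.429 in KO and 0 and 0 in WT. The part of these markers in the Xpo7 result was not tested.

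The highest Xpo7 region by percentile (70765896 to 70767169) lay inside both Xpo7 and Dok2, an adaptor gene of blood cells, 0.92 kb from an end of Dok2 and 4.05 kb inside the higher end of Xpo7, so it cannot be given to one of them. Its scaled pileup was 7.98 and 6.17 in KO and 6.59 and 6.67 in WT, and the groups overlapped. A weak region on the other side of the Xpo7 end, also inside Dok2 (70774318 to 70775036), had 0.444 and 0.595 in KO and 0.326 and 0.314 in WT, a ratio of 1.61 (log2 0.69, and 0.47 without KO replicate 2). Xpo7 was the member without a peak within 1 kb of a gene end in most libraries: WT replicate 1 alone had one, at the lower end, at the 0.583 percentile of its list. Of the 14 Xpo7 regions, 6 were in WT replicate 1 alone and 1 in WT replicate 2 alone. The number of Xpo7 peaks was 5 and 5 in KO and 13 and 7 in WT (exact permutation p = 0.333). The difference of the means was -5.0, and it was -0.5 once every list was shortened by fold to the same length.

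Rac1 showed the highest mean percentile of fold of the 7 genes at its higher end (chromosome 5, 143527310 to 143528609), with list percentiles of 91.1 and 91.0 in KO and 91.6 and 86.5 in WT. In WT replicate 2 the Xpo7 and Dok2 region was higher, at 89.3. Scaled pileup there was 13.2 and 10.5 in KO and 10.6 and 9.92 in WT, which overlapped (ratio 1.15, exact permutation p = 0.667). A second shared region, 4.49 kb inside the lower end, had 1.09 and 1.18 in KO and 1.14 and 1.12 in WT, a ratio of 1.005. In scaled pileup the genotypes differed by less than the 2 KO libraries did at both regions of this widely used GTPase gene. In percentile among shared regions, the first region was at 88.5 and 85.9 in KO and 85.3 and 83.2 in WT, higher in KO by a narrow margin. A region 9.53 kb from the higher end (143518072 to 143518595) had a peak in both KO libraries, with pileups of 16 and 24, and in WT replicate 1, with a pileup of 28, and none in WT replicate 2.

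Rac2, the Rac gene of blood cells, had higher scaled pileup in both KO libraries at all 3 of its shared regions, against 22.1% of all shared regions. Near its lower end, 5.11 kb inside the gene (chromosome 15, 78563893 to 78565909), scaled pileup was 0.704 and 0.738 in KO and 0.356 and 0.510 in WT, a ratio of 1.69 (log2 0.76, and 0.50 without WT replicate 1). At the higher end (78571505 to 78573174) it was 1.70 and 1.83 in KO and 1.30 and 1.55 in WT (ratio 1.24). At the region of highest fold, 8.80 kb beyond that end (78581241 to 78582305), it was 0.963 and 1.07 in KO and 0.741 and 0.824 in WT (ratio 1.30). Groups did not overlap in scaled pileup at any of the 3, each with an exact permutation p of 0.333. In percentile among shared regions the higher end overlapped, at 51.4 and 56.2 in KO and 45.45 and 55.0 in WT. Lymphocyte gene-end peaks were also found in KO libraries alone, with sums of 0.556 and 0.429 in KO and 0 and 0 in WT, and their part in the Rac2 result was not tested.

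Hdac2 had 1 region, over its start (chromosome 10, 36974003 to 36975386), and no other peak within the rule in any library. Scaled pileup was 7.67 and 5.70 in KO and 5.96 and 6.49 in WT, so the genotypes overlapped (ratio 1.06, exact permutation p = 1).

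Taking the 25 shared regions by scaled pileup, 6 were higher in both KO libraries (24%, against 22.1% of all shared regions) and 12 were lower in both (48%, against 17.3%). The 12 lay at 3 genes, 6 at Ube2h, 3 at Ube2o and 3 at Xpo7. Regions of 1 gene are neighbours in the same libraries and are not independent. The direction depended on the measure. By percentile of fold, which is set against local background, 8 of the 25 were higher in both KO libraries (32%, against 19.2%). By that measure 4 were lower in both (16%, against 20.4%). The median KO minus WT difference in scaled pileup was -0.12 (log2) over the 25 and 0.05 over all shared regions. At a size of at least 1.5-fold, chosen after the values were seen, 3 regions were higher (12%, against 3.99%) and 2 lower (8%, against 2.87%). All 5 have been given: the Ube2o end, the Rac2 region 5.11 kb inside the gene, and 3 regions of Xpo7.

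**Figure D3:**
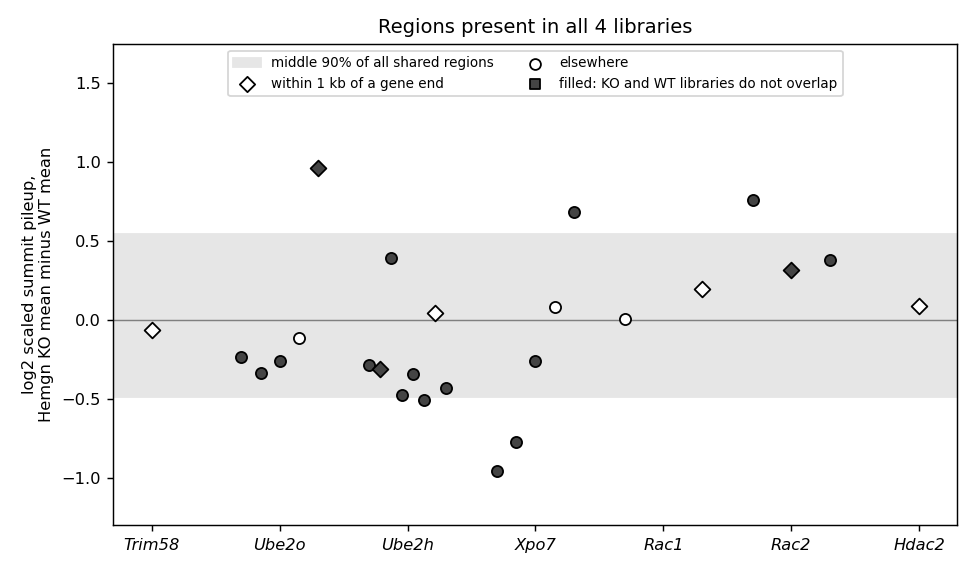
Difference in log2 scaled summit pileup, Hemgn KO mean minus WT mean of 2 libraries each, at the 25 shared regions, ordered by position within each gene. Diamonds lie within 1 kb of a gene end, filled points have no overlap between genotypes, and grey spans the middle 90% of all shared regions, from -0.49 to 0.55. The Ube2o end, 1 Rac2 region and 1 Xpo7 region lie above the band, and 2 Xpo7 regions and, narrowly, 1 Ube2h region lie below it.

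**Figure D4:**
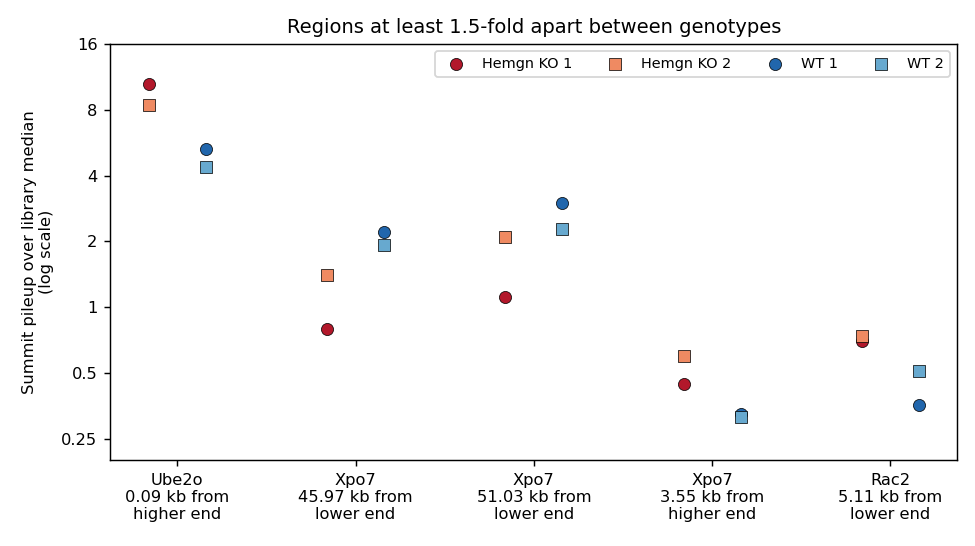
Summit pileup over the library median (log scale) at the 5 regions at least 1.5-fold apart between genotypes, 1 point a library, KO left of WT. KO points lie above WT points at the Ube2o, Rac2 and outer Xpo7 regions and below them at 2 Xpo7 regions, where KO 1 is lowest.

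The 2 WT-only regions were weak. The Rac1 region (chromosome 5, 143512192 to 143512550) had list percentiles of 9.07 and 4.195 and summit pileups of 50 (exact Poisson 95% interval 37.1 to 65.9) and 24 (15.4 to 35.7) in WT. The Xpo7 region (chromosome 14, 70707007 to 70707386) had percentiles of 1.64 and 5.60 and pileups of 57 (43.2 to 73.9) and 31 (21.1 to 44.0) in WT, and lay beside the shared region at 46.0 kb. These intervals cover counting error only. Scaled from WT replicate 1 to the depth of KO replicates 1 and 2, the expected −log10 p was 4.99 and 7.02 for the Rac1 region and 3.50 and 5.14 for the Xpo7 region, above the lowest listed values of 3.35 and 3.28. With lists of equal length neither was WT-only, and a Rac1 region 9.53 kb from the higher end became KO-only. For 7 of the 14 regions found in WT replicate 1 alone, the same pileup and local background scaled to the depth of Hemgn KO replicate 1 would miss the weakest p of that list, as would 7 in WT replicate 2 and 1 in Hemgn KO replicate 2. By the same scaling 1 region would miss it in all 3 other libraries, and 7 would pass it in each of them. The region inside Trim58 is such a case, with an expected −log10 p of 15.6 and 23.8 in KO replicates 1 and 2 and 14.7 in WT replicate 2, against lowest listed values of 3.35, 3.28 and 3.37.

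Other genes of the same machinery were read from 3 lists of 68 genes. A peak within 1 kb of a gene end was present in all 4 libraries at 62 genes, against 55.4% of all protein-coding genes, and in no library at 4, against 36.6%. All 4 libraries had one at 31 of 32 genes of enucleation and nuclear condensation, at 10 of 11 genes of the CTLH ligase and at 21 of 25 ubiquitin and proteasome genes. The exceptions without a gene-end peak were the tropomyosin gene Tpm3, the CTLH subunit gene Wdr26, the F-box gene Fbxo7 and the deubiquitinase gene Usp7. No gene had a KO-only or WT-only gene-end peak, against 0.294% and 0.303% of all genes. Of the 343 regions at these genes, 168 were shared (49.0%, against 49.7% of all regions), 2 were KO-only (0.583%, against 1.41%) and 6 WT-only (1.749%, against 2.2%). Over the 3 lists pooled, neither exclusive kind was more frequent than over all regions. The CTLH list alone had 3 WT-only of 62 regions (4.84%), a small count, and 38.7% shared. WT-only regions were 1.12% in the enucleation list and 0.971% in the ubiquitin and proteasome list. The KO-only ones lay at Cit, a kinase gene of cell division, and at Myh9, which encodes a non-muscle myosin. The WT-only ones lay at the CTLH genes Ranbp10 (2) and Mkln1, at Cit, at the formin gene Diaph1 and at the proteasome gene Psma1. The Diaph1 region had the highest percentiles of these, 52.6 and 48.5 in WT, on summits of 36 and 19. The KO-only and WT-only regions of Cit lay 174 bp apart, so all 4 libraries had a peak there and the 2 would be joined by a gap rule of 500 bp. At Ranbp10, 1 of the 2 regions was nearest to an end of Tsnaxip1.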

How the data were processed

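The 4 libraries (2 Hemgn KO, 2 WT) each came with a deposited MACS2 narrowPeak list, none pooled. The submitters' processing notes name the aligner Bowtie2 2.3.5, the peak caller MACS2 2.2.7.1, and SAMtools 1.9 with Picard 2.21.4, without settings. The sources used here give no genome build. Fold in the deposited lists is the authors' ratio of summit pileup to background, each raised by 1. Each peak also has −log10 values of p and q from the authors, and their deposited score equals 10 times −log10 q. Against GRCm38.p6 gene ends, 27.8% to 35.3% of summits fell within 1 kb, and 6.67% to 7.31% after shifts of 5, 20 and 50 kb. Positions are printed as listed, 1-based.

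Peaks of the autosomes and of X and Y that shared 1 bp or more were merged. Gene bodies came from RefSeq (GRCm38.p6), in a table without strand. Percentiles rank fold within a list. Pileup was solved as the whole number that returns both fold and −log10 p (tolerance 0.01), and 100% of 2000 simulated peaks came back exactly. Whether duplicates were removed is not known here. Members, lists and tests were chosen with earlier results of these data known. The text names all 7 genes, with each one's strongest shared region and all KO-only or WT-only regions, and those list genes with such a region or with no gene-end peak; other member regions were described after their values were seen. Genotypes were compared with exact permutation tests in Python 3.11.15 (numpy 2.4.6, pandas 2.3.3, scipy 1.17.1).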

Additional observations from a re-analysis of the deposited data

How the results depend on the processing

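The count of 25 shared regions became 21 with lists of equal length by fold, 23 by −log10 q, and 13 both among folds from 6 upward and in the upper 50% of each list. The WT-only count of 2 became 1 with gaps of 500 bp joined, 3 with regions limited to the gene body and 1 kb around it (a further one at Ube2o), and 0 in 4 settings, namely lists shortened to equal length by either measure, folds from 6 upward, and the upper 50%. The KO-only count of 0 became 1 with lists of equal length by either measure. With each library left out, the counts ran from 0 to 3 KO-only, from 3 to 16 WT-only and from 26 to 28 shared, and the 16 came without WT replicate 2, where WT replicate 1 alone decides. The percentile difference at the strongest region turned with scaled pileup at Trim58 (-0.065, log2) and Xpo7 (0.0825, log2), and with whole-list percentiles at Hdac2 (-0.0399). With each library left out, that difference ran from -5.52 to 3.97 at Ube2h, -0.65 to 1.59 at Hdac2, 7.55 to 14.5 at Trim58, 16.1 to 19.6 at Ube2o, -8.44 to -1.21 at Xpo7, 1.58 to 4.19 at Rac1 and 10.4 to 15.9 at Rac2. The difference in peak number ran from -3 to 2 at Ube2o, -8 to -2 at Xpo7, -3 to 0 at Trim58 and -5 to 0 at Ube2h, and was 0.5 at Rac1 with lists of equal length. Pathway genes without a gene-end peak numbered 7 within 500 bp and 2 within 2 kb. Scaled by background in place of the median, the log2 gap was 0.89 at the Ube2o end and -1.03 and -0.85 at the 2 Xpo7 regions. Same-numbered deviations from the genotype means correlated at r = -0.17 over 27473 regions. With 2 libraries a genotype these deviations are a single contrast in each, so they cannot tell whether replicate numbers paired the libraries. Under the replicate block the percentile difference of Ube2o was 17.9 as before, with an exact sign-change p of 0.5, the smallest that 2 pairs allow. With the numbers crossed, chosen after seeing the data, 0 results passed, as in every other setting. Depth limits weak regions most: the lowest summit pileup in a list was 9 and 12 in KO and 15 and 9 in WT.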

Other observations

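Ube2h, the member with the most regions, had 8 and 12 peaks in KO and 15 and 10 in WT. The genes with the nearest numbers, by the sum of absolute differences over 4 libraries, were the aminopeptidase gene Aopep (8 and 12 in KO, 14 and 9 in WT), the calcium channel gene Itpr1 (8 and 13 in KO, 14 and 10 in WT) and Pacsin2 (8 and 12 in KO, 15 and 8 in WT). Each differed by 2 in all, and 5 of 16280 genes with peaks were that close.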
